A study of Mus musculus with 8 samples.

Results

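The 9 genes described here, T, Eomes, Mixl1, Mesp1, Gsc, Evx1, Cdx1, Lhx1 and Tbx6, encode transcription factors of the primitive streak and the early mesoderm. They were taken by symbol from the 46078 gene IDs counted in each library, with earlier results of these data known. RNA-sequencing libraries of 4 kinds of mouse cells were compared, with 2 libraries of each. tcESCs are a male (XY) embryonic stem cell (ESC) line on a C57BL/6 background that carries the tesco-cfp reporter, a CFP transgene driven by a testis enhancer of Sox9. tc;Sf1ESCs are a clone of tcESCs, grown from 1 colony under G418, that overexpresses a transgene of mouse Sf1, the nuclear receptor gene Nr5a1. SCLCs, the Sertoli cell-like cells, were CFP-positive cells sorted at day 12 from cultures of tc;Sf1ESCs induced towards testicular somatic cells, so they carry both tesco-cfp and Sf1. todPGCLCs, the primordial germ cell-like cells of testicular organoids, were sorted at day 6 from aggregates of such somatic cells with epiblast-like cells of a male Prdm1-gfp line, also C57BL/6. The gate for these took GFP together with a surface marker, named as SSEA1 in one place and as CD49f in another. The Prdm1-gfp ESCs were not analysed here, so for todPGCLCs the line and the cell type cannot be told apart.

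The primitive streak is the region of the gastrulating embryo where epiblast cells move inwards to form mesoderm and definitive endoderm. Nodal, Wnt, BMP and FGF signals start it, and the factors described here divide it along its length: Eomes, Gsc and Lhx1 act in its anterior part and the mesendoderm, T, Mixl1 and Evx1 along the streak and at its posterior end, and Mesp1, Tbx6 and Cdx1 in the mesoderm and axis that form from it. Several of the genes also act elsewhere, Eomes in the trophoblast and Lhx1 in the intermediate mesoderm, from which kidney and gonad arise, and T is transiently expressed when epiblast-like cells become primordial germ cells.

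Of the 9 genes, 7 had a promoter window in the RefSeq table of GRCm38.p6, from 250 bases before to 50 bases after the annotated start. The 4 windows shown belong to the pair of genes that differed between the ESC lines, T and Eomes, and to the pair that were higher in SCLCs and todPGCLCs than in ESCs, Lhx1 and Tbx6. The T window lies at chr17:8434173-8434472 on the plus strand, the Eomes window at chr9:118477939-118478238 on the plus strand, the Lhx1 window at chr11:84525485-84525784 on the minus strand and the Tbx6 window at chr7:126781233-126781532 on the plus strand. Each is written 5′ to 3′ along the gene, and capitals mark a match to a motif searched.
T: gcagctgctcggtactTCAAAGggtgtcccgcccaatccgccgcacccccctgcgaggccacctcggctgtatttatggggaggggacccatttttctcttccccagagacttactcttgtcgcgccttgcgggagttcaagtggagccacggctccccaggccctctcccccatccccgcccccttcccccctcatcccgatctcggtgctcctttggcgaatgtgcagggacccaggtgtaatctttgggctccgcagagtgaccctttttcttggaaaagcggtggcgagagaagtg
Eomes: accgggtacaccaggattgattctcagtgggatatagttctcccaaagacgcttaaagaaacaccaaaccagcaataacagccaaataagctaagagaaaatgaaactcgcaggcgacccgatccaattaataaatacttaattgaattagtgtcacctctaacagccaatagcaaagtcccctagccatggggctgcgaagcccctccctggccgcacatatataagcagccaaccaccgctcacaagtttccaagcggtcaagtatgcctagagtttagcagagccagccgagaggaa
Lhx1: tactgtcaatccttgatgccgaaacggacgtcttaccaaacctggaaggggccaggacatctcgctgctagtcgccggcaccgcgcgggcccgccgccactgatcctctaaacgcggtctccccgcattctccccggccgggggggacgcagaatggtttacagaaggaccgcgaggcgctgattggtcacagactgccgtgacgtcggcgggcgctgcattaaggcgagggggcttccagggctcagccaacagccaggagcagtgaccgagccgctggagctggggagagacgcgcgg
Tbx6: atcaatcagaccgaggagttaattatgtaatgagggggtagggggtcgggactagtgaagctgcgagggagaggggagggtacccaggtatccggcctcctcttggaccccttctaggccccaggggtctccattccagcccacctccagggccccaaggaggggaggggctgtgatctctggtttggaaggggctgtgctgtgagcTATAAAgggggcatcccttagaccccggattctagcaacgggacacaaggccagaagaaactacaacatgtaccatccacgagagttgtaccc

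The capitals in the T window are TCAAAG, the opposite-strand form of the TCF/LEF motif CTTTGA, with its first base at -234 relative to the annotated start. This motif was searched on both strands and occurs in 16% of the 32851 windows of the table. Those in the Tbx6 window are TATAAA, the TATA motif, searched on the gene's strand, which starts at -43 and occurs in 8.32% of all windows. The T-box motif TCACACC and the NR5A motif AAGGTCA, each searched on both strands, occur in 3.98% and 4.72% of all windows and in none of the 4 shown, and Eomes and Lhx1 held no match to any of the 4 motifs. Among the other windows, that of Mesp1 held TCACACC at 6 and 2 TCF/LEF matches at -72 and -31, and that of Gsc held TATAAA at -164. No matches overlapped. The windows differed in base composition: the Lhx1 window held 31 CpG dinucleotides and 65.7% G and C, the T window 17 and 61.7%, the Eomes window 10 and 47.3% and the Tbx6 window 7 and 57.7%, against medians of 7 and 52.7% over all windows. A match is a description of letters and not a binding site.

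The libraries held 25411033 to 30680191 counts on genes. Levels are given as CPM, counts scaled to a library's total on genes, and as CPM per kb of exon where genes are compared with each other. At these depths 3 counts are 0.0978 to 0.118 CPM, which is taken as the floor and covers counting error only. The test was edgeR's quasi-likelihood F test, with p-values adjusted by Benjamini and Hochberg's method over all genes in the fit. Standard errors were derived from that test, as the size of the log2 fold change divided by the square root of F. Genes are described as called higher or lower where they passed an adjusted p of 0.05 and differed by more than 2-fold. The labels do not say that replicates were separate cultures, so p-values measure the spread between these libraries only. As checks of the labels, the counts of Nr5a1 were 1 and 0 in tcESCs, 52 and 30 in tc;Sf1ESCs, 341 and 535 in SCLCs and 6 and 5 in todPGCLCs, and Prdm1 had 4919 and 5140 counts in todPGCLCs against 201 to 660 elsewhere. In the SCLC libraries 5 of 7 Sertoli cell markers tested were called higher than in tcESCs, as were 24.3% of all genes. Nr5a1, the gene that the transgene carries, is 1 of the 5, and its counts do not separate the transgene from the cells' own gene. Of the others 2, Sox9 and Cldn11, passed the filter on mean counts only through the SCLC libraries. The number of Sertoli cell markers called higher fell without SCLC replicate 1 or without either tcESC library, and rose without SCLC replicate 2. Amh, which defines Sertoli cells, had 10 and 22 counts against 15 and 18. Markers of other cell types were high in SCLCs: the summed level of 10 visceral endoderm markers was 1974 and 3440 CPM against 36.2 to 112 in ESCs, with all 10 called higher than in tcESCs, 4 of which passed the filter only through the SCLC libraries. The summed level of 10 trophectoderm markers was 841 and 1112 CPM in SCLCs against 89.8 to 138 in ESCs, with 8 of 9 called, 2 of which passed in that way. Ttr of the first list had 0 counts in every ESC library and Tpbpa of the second 0 in every library but the SCLCs. In bulk samples, fewer cells of a type and less RNA per cell cannot be told apart.

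In tcESCs, the genes ranged from well expressed to undetected. Per kb of exon, Cdx1 was highest at 15.5 ± 0.306 CPM per kb (SD, n = 2 here and below), followed by Eomes at 7.26 ± 0.243, Gsc at 4.54 ± 0.232 and Evx1 at 1.58 ± 0.131, and these 4 did not overlap between libraries. T at 0.645 ± 0.0232, Mixl1 at 0.389 ± 0.00773 and Tbx6 at 0.268 ± 0.132 CPM per kb were lower. Mesp1, a bHLH factor of nascent mesoderm, and Lhx1 had at most 1 count in each tcESC library, below the floor. In tc;Sf1ESCs Cdx1 stayed first at 23.2 ± 1.03 CPM per kb, and T at 4.12 ± 0.482 stood within the spread of Gsc at 4.19 ± 0.285 and above Eomes at 2.04 ± 0.145. In SCLCs the order was led by Eomes at 1.77 ± 0.434 and Tbx6 at 1.48 ± 0.422 CPM per kb, which overlapped. In todPGCLCs T at 8.07 ± 5.06, Eomes at 4.12 ± 0.370, Lhx1 at 2.67 ± 2.07, Cdx1 at 2.02 ± 0.455 and Gsc at 1.84 ± 1.14 CPM per kb were the highest. The lower T library was only just above the higher Eomes library, both Eomes libraries were above those of Cdx1 and Gsc, and Lhx1, Cdx1 and Gsc overlapped each other.

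**Figure D1:**
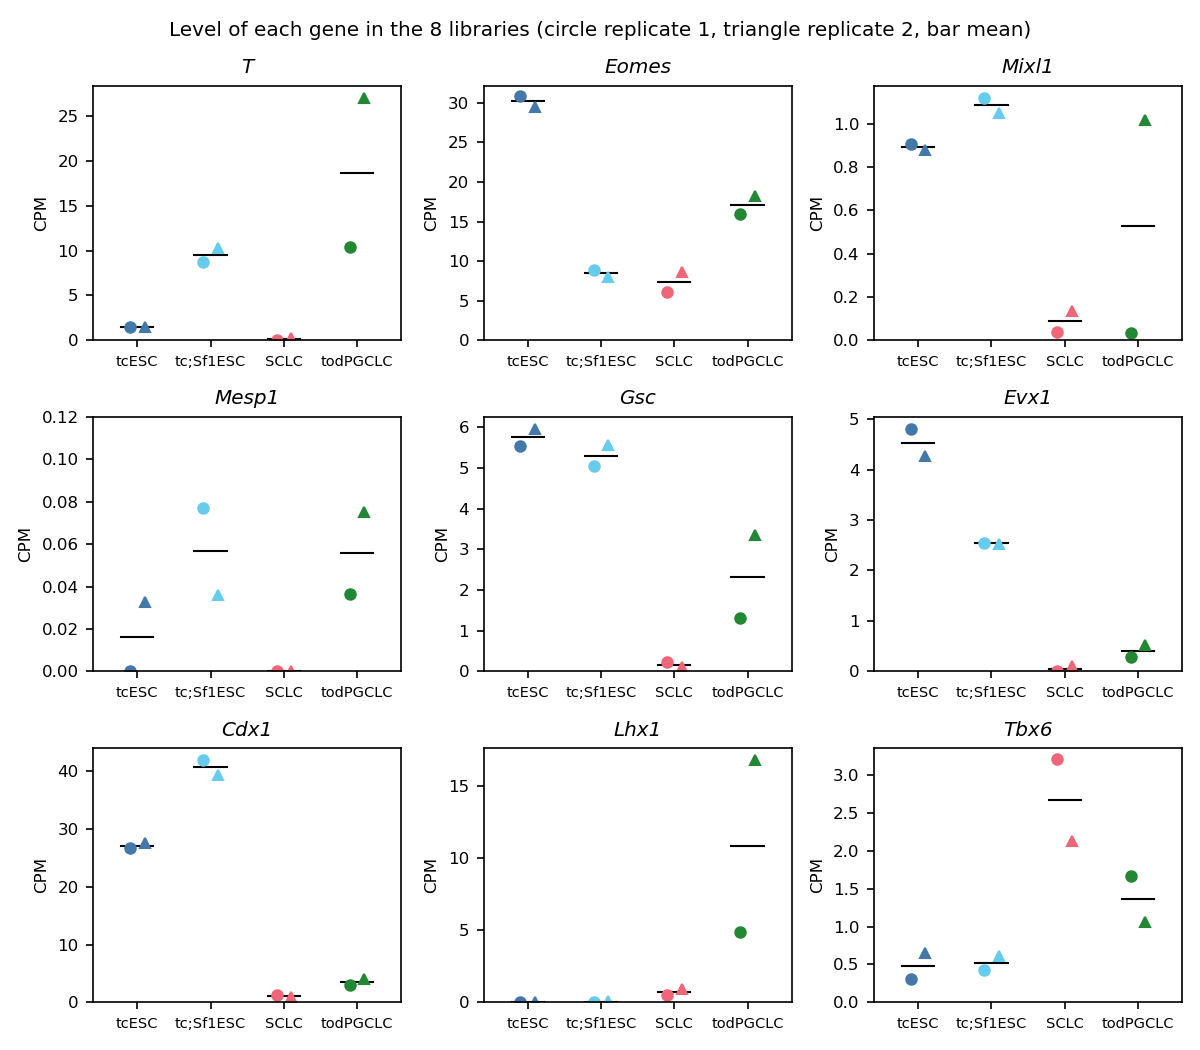
Level (CPM, linear axis from 0) of the 9 genes in each of the 8 libraries, with circles for replicate 1, triangles for replicate 2 and bars for the mean of 2. T rises to 27.0 CPM in 1 todPGCLC library, Cdx1 is at 26.7 to 41.9 CPM in both ESC lines and at 4.10 CPM or less elsewhere, and every Mesp1 point lies under the floor.

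The comparison of tc;Sf1ESCs with tcESCs asks what the Sf1 transgene, in 1 clone, goes with in undifferentiated cells. T and Eomes, both T-box factors, differed in opposite directions, and Cdx1 by less than 2-fold. T (brachyury, needed to form mesoderm and extend the axis; ENSMUSG00000062327, chromosome 17, 8434423 to 8442496) was at 1.46 and 1.53 CPM in the tcESC libraries and at 8.76 and 10.3 CPM in the tc;Sf1ESC libraries. The tc;Sf1ESC libraries were thus both above the tcESC libraries, by a log2 fold change of 2.68 (standard error 0.259, adjusted p = 0.000529 from edgeR's test). Eomes (needed for cells to leave the epiblast and for definitive endoderm; ENSMUSG00000032446, chromosome 9, 118478212 to 118486132) was at 30.9 and 29.5 CPM in tcESCs and at 8.91 and 8.06 CPM in tc;Sf1ESCs. Here both tc;Sf1ESC libraries were lower, with a fitted log2 difference of -1.82 (standard error 0.171, adjusted p = 0.000496). Eomes is also a trophoblast gene, and 5 of 9 trophectoderm markers tested were called lower in tc;Sf1ESCs and 0 higher. Fewer were called with any 1 of these libraries left out. The median log2 fold change of the 9 was -1.96, and ran from -2.58 without tc;Sf1ESC replicate 1 to -1.50 without tc;Sf1ESC replicate 2. Krt18 fell from 22.4 and 30.5 to 0.887 and 0.759 CPM, Krt8 from 25.7 and 33.1 to 7.41 and 7.59 CPM, and Krt7, Gata3 and Esx1 were also called. Other markers of the list had higher levels in tc;Sf1ESCs without being called: Cdx2 was at 2.24 and 1.63 CPM against 5.28 and 4.48 CPM (log2 fold change 1.35, adjusted p = 0.0616), and Tfap2c at 58.6 and 62.5 CPM against 78.2 and 75.9 CPM (0.36). The summed level of the trophectoderm markers was 117 and 138 CPM in tcESCs against 93.5 and 89.8 CPM in tc;Sf1ESCs. Elf5, Hand1 and Tpbpa of the list had at most 4 counts in any ESC library. Whether tcESCs hold trophoblast cells, and the part of any in the Eomes difference, was not tested. Of the 7 genes tested 1 was called higher and 1 lower, against 6.04% of all 16481 genes called higher and 5.62% called lower.

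The other genes differed less between the ESC lines. Cdx1, a caudal-type factor of the posterior axis (ENSMUSG00000024619, chromosome 18, 61018862 to 61036199), was at 26.7 and 27.5 CPM in tcESCs and at 41.9 and 39.4 CPM in tc;Sf1ESCs. The libraries did not overlap, but the log2 fold change of 0.60 (standard error 0.108, adjusted p = 0.00588) was under the limit of 2-fold. Evx1, a homeobox gene of the posterior streak (ENSMUSG00000005503, chromosome 6, 52313498 to 52318378), was at 4.80 and 4.27 CPM against 2.55 and 2.53 CPM, again without overlap. Its log2 fold change of -0.82 (standard error 0.296) had an adjusted p of 0.0732, and the median of 776 genes on chromosome 6 was -0.31 in this comparison, where the other chromosomes with a gene of the group had medians of -0.0189 to 0.0409. Gsc, a homeobox gene of the organizer (ENSMUSG00000021095, chromosome 12, 104471209 to 104473330), was at 5.55 and 5.97 CPM in tcESCs and at 5.05 and 5.56 CPM in tc;Sf1ESCs, which overlapped. Mixl1, a paired-type homeobox gene of the streak (ENSMUSG00000026497, chromosome 1, 180693043 to 180697034), was at 0.905 and 0.880 CPM against 1.12 and 1.05 CPM, on 23 to 29 counts a library. Tbx6, a T-box gene of paraxial mesoderm (ENSMUSG00000030699, chromosome 7, 126781483 to 126785560), was at 0.315 and 0.652 CPM against 0.424 and 0.614 CPM, and the groups overlapped. The adjusted p of these last 3 was 0.734, 0.56 and 0.91.

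SCLCs were compared first with tcESCs, the parental line. SCLCs were made from tc;Sf1ESCs, so this comparison holds the difference of clone and transgene together with that of cell type. T, Mixl1, Gsc and Evx1 were near the floor in SCLCs and Cdx1 was low, Tbx6 and Lhx1 were higher than in ESCs, and Eomes kept a measurable level. All 7 genes tested were called, 6 lower and 1 higher, where 18.3% of all genes were called lower and 24.3% higher. Of 8 pluripotent cell markers 7 were also called lower and 0 higher, with a median log2 fold change of -2.95. Cdx1 was at 1.28 and 0.928 CPM in SCLCs, far below both ESC lines, with a log2 fold change of -4.56 against tcESCs (standard error 0.150, adjusted p = 5.6e-07). Gsc was at 0.226 and 0.103 CPM, or 6 and 3 counts, below every ESC library (log2 fold change -5.05, standard error 0.317, adjusted p = 8.2e-06, and -5.67 without SCLC replicate 1). Evx1 had 0 and 3 counts against 122 and 131 in tcESCs, which makes it at least 41.9-fold lower (adjusted p = 3.36e-05).

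For T the SCLC counts were 2 and 7, or 0.0755 and 0.241 CPM, so that 1 library was under the floor. Both were below every ESC library, with a log2 fold change against tcESCs of -3.11 (standard error 0.416, adjusted p = 0.000379) and of -4.17 without SCLC replicate 2. Mixl1 had 1 and 4 counts, 0.0377 and 0.138 CPM, and was likewise lower than in every ESC library. It fell by 3.19 on the log2 scale (standard error 0.508, adjusted p = 0.000944), with -2.58 without SCLC replicate 1 and -4.35 without SCLC replicate 2. Eomes was at 6.08 and 8.63 CPM in SCLCs, lower than in tcESCs with a fitted log2 difference of -1.97 (standard error 0.173, adjusted p = 4.26e-05). Eomes also acts in trophoblast. Markers of trophectoderm and, with a larger sum, of visceral endoderm were high in the same libraries. The part of such cells in the levels of Eomes, Lhx1 and Tbx6 was not tested.

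Tbx6 and Lhx1 stood apart from the rest. Tbx6 was at 3.21 and 2.13 CPM in SCLCs, above every ESC library, with a log2 fold change of 2.49 against tcESCs (standard error 0.409, adjusted p = 0.00112) and of 3.11 without tcESC replicate 2. Lhx1 (ENSMUSG00000018698, chromosome 11, 84518284 to 84525535) had 13 and 28 counts in SCLCs, 0.491 and 0.962 CPM, and 0 to 2 counts in the ESC libraries. It was under the mean count of 10 needed for the test in these 6 libraries, and its SCLC level was at least 6.73 times the tcESC floor (at least 6.73-fold higher) and at least 6.48-fold above that of tc;Sf1ESCs. Mesp1 (ENSMUSG00000030544, chromosome 7, 79792241 to 79793788) had 0 counts in both SCLC libraries and at most 2 in any library, so no difference was detectable at this depth.

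Against tc;Sf1ESCs, the line from which SCLCs were made, 5 of the 7 genes tested were called lower in SCLCs and 1 higher, where 18.1% of all genes were called lower and 24.1% higher. This comparison shares its SCLC libraries with the one before. The T level fell from 8.76 and 10.3 CPM to 0.0755 and 0.241 CPM, a larger span than from tcESCs, with a fitted log2 difference of -5.80 (standard error 0.357, adjusted p = 7.72e-06) and of -6.86 without SCLC replicate 2. Cdx1 fell with a fitted log2 difference of -5.15 (standard error 0.149, adjusted p = 3.65e-07) and Gsc with -4.95 (standard error 0.319, adjusted p = 9.5e-06, and -5.56 without SCLC replicate 1). Mixl1 fell with -3.48 (standard error 0.497, adjusted p = 0.000532), between -2.87 without SCLC replicate 1 and -4.64 without SCLC replicate 2, and Evx1 was at least 23.5-fold lower (adjusted p = 9.19e-05). Tbx6 was higher with 2.39 (standard error 0.409, adjusted p = 0.00135). Eomes was not called: the 8.91 and 8.06 CPM of the tc;Sf1ESC libraries overlapped the 6.08 and 8.63 CPM of the SCLC libraries, with a log2 difference of -0.15 (standard error 0.178, adjusted p = 0.466). In both groups Eomes was lower than in tcESCs.

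**Figure D2:**
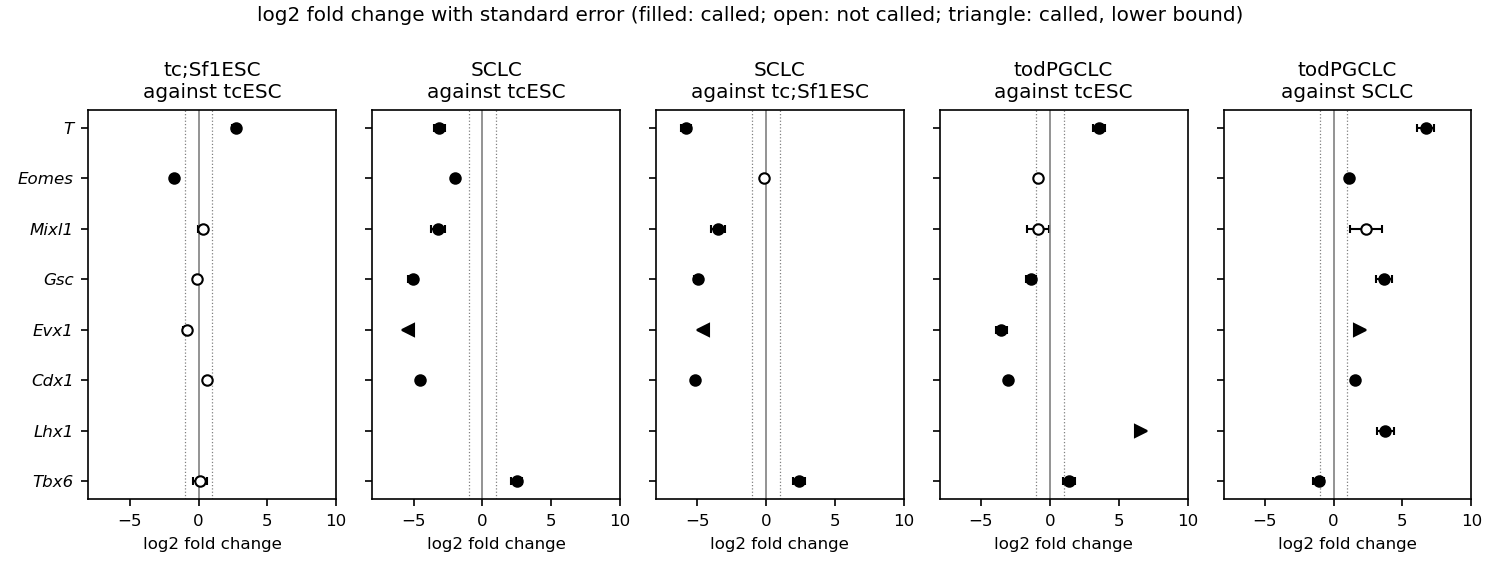
log2 fold change (x axis) of the 8 genes tested in at least 1 of the 5 comparisons, with bars for the standard error, filled points for called genes, open points for genes not called and triangles for called genes given as a lower bound. Dotted lines mark 2-fold. T is on the right in tc;Sf1ESCs (2.68) and todPGCLCs (3.56) against tcESCs and on the left in SCLCs (-3.11), and Tbx6 is on the right in SCLCs (2.49).

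todPGCLCs were compared with tcESCs, and with SCLCs, as germ-line cells from another line. T and Lhx1 were higher in them than in tcESCs, Evx1, Cdx1 and Gsc lower. Of the 8 genes tested over all 8 libraries, 3 were called higher and 3 lower, where 18.1% of 16707 genes were called higher and 11.2% lower. T was at 10.4 and 27.0 CPM in todPGCLCs, both above the 1.46 and 1.53 CPM of tcESCs. It rose by a log2 fold change of 3.56 (standard error 0.453, adjusted p = 0.000179), or by 2.73 without todPGCLC replicate 2. The difference from tc;Sf1ESCs, at 8.76 and 10.3 CPM, was not tested. Lhx1 had 135 and 447 counts, 4.90 and 16.8 CPM, against 1 and 1 counts in tcESCs, which makes it at least 100.7-fold higher (adjusted p = 0.000129), or at least 45.4-fold without todPGCLC replicate 2 and at least 156-fold without todPGCLC replicate 1. Lhx1 passed the filter on mean counts only through its todPGCLC libraries, so its call adds nothing beyond its levels.

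The genes that were lower in todPGCLCs kept levels above those of SCLCs. Cdx1 was at 2.98 and 4.10 CPM, under every ESC library, with a log2 fold change against tcESCs of -3.01 (standard error 0.165, adjusted p = 1.83e-06). Evx1 was at 0.291 and 0.527 CPM on 8 and 14 counts, also under every ESC library, with -3.53 (standard error 0.396, adjusted p = 8.65e-05). Gsc was at 1.31 and 3.35 CPM, under every ESC library, with -1.38 (standard error 0.369, adjusted p = 0.0103), and its call was lost without tcESC replicate 2 (adjusted p = 0.0553) and without todPGCLC replicate 1 (-0.85), while without todPGCLC replicate 2 it was -2.20. Eomes was at 16.0 and 18.2 CPM, lower than in tcESCs and above every tc;Sf1ESC and SCLC library, and its log2 fold change of -0.89 against tcESCs (standard error 0.160, adjusted p = 0.00128) was under 2-fold. Tbx6 was at 1.67 and 1.05 CPM, above both tcESC libraries, with 1.39 (standard error 0.444, adjusted p = 0.0233). That call was lost without tcESC replicate 1 (0.94, adjusted p = 0.157) and without todPGCLC replicate 1 (1.02, adjusted p = 0.145), and the value was 1.98 without tcESC replicate 2. Mixl1 was at 0.0363 and 1.02 CPM, on 1 and 27 counts, so the groups overlapped and the log2 fold change of -0.84 had a standard error of 0.797 (adjusted p = 0.384). Without todPGCLC replicate 2 it was -4.51 (adjusted p = 0.00291) and called.

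Against SCLCs, 6 of the 8 tested genes rose and 1 fell in todPGCLCs, where 18.5% of all genes were called higher and 19.5% lower. The largest fitted difference was that of T, at 10.4 and 27.0 CPM against 0.0755 and 0.241 CPM, with a fitted log2 difference of 6.68 (standard error 0.624, adjusted p = 1.83e-05) that was 5.84 without todPGCLC replicate 2 and 7.73 without SCLC replicate 2. Lhx1 was at 4.90 and 16.8 CPM against 0.491 and 0.962 CPM, without overlap. It is 1 of the 6 genes, but it passed the filter on mean counts only through its todPGCLC libraries, so its call adds nothing to these levels. For Gsc the value was 3.67 (standard error 0.580, adjusted p = 0.000464), 2.85 without todPGCLC replicate 2 and 4.29 without SCLC replicate 1. Cdx1 was higher with 1.55 (standard error 0.218, adjusted p = 0.000225) and Evx1 was at least 3.78-fold higher (adjusted p = 0.0121). The calls of Evx1, Eomes and Tbx6 depended on single libraries. That of Evx1 was lost without todPGCLC replicate 2 (log2 difference 2.22, adjusted p = 0.0701). Eomes was higher with 1.08 (standard error 0.170, adjusted p = 0.000449) but under 2-fold without SCLC replicate 1 (0.84) or todPGCLC replicate 2 (0.99). Tbx6 was lower with -1.09 (standard error 0.371, adjusted p = 0.0266) and not called without SCLC replicate 1 (-0.78, adjusted p = 0.0995), without todPGCLC replicate 2 (-0.80, adjusted p = 0.153), with library totals in place of TMM (-0.96) or with DESeq2 (adjusted p = 0.0659). Mixl1 had 2.35 with a standard error of 1.18 (adjusted p = 0.104), was called without todPGCLC replicate 1 (3.31, adjusted p = 0.00197) and turned to -1.32 without todPGCLC replicate 2. Without that library 4 of the 8 genes were called, T, Gsc, Cdx1 and Lhx1.

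The todPGCLC replicates differed from each other in these genes. On the log2 scale after TMM, with a prior count of 2, replicate 2 minus replicate 1 was 3.27 for Mixl1, 1.76 for Lhx1, 1.37 for T and 1.31 for Gsc. The other values were 0.72 for Evx1, 0.45 for Cdx1, 0.18 for Eomes and -0.63 for Tbx6. In todPGCLC replicate 2, 4 of the 8 genes were therefore more than 2-fold higher than in replicate 1 and none was more than 2-fold lower, where 1.63% of 16707 genes were more than 2-fold higher in that replicate. Over all genes the difference had an SD of 0.378. In the tcESC pair none of the 8 genes differed by more than 2-fold, in the tc;Sf1ESC pair 1 did, Lhx1 on 0 and 2 counts, and in the SCLC pair 2 did, T and Evx1 on 0 to 7 counts. Because there is 1 library on each side, this difference has no test.

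Some other genes of gastrulation were also higher in todPGCLC replicate 2. Of 15 streak signals and feedback genes 3 were more than 2-fold higher in replicate 2 and 11 were higher: Cer1, a Nodal antagonist of anterior endoderm, had 73 and 337 counts, Fgf8 had 44 and 153, and Dkk1, a Wnt antagonist, had 108 and 393. Of 13 other streak transcription factors 5 were more than 2-fold higher in replicate 2 and 1 lower, among them the endoderm genes Foxa2 with 75 and 190 counts and Sox17 with 92 and 282. Markers of germ cells and of pluripotent cells did not move in this way, with 0 of 8 and 0 of 8 past 2-fold in either direction. The summed level of the germ cell markers was 903 and 992 CPM and that of the pluripotent markers 3119 and 3031 CPM, while that of the 9 streak genes was 37.6 and 72.1 CPM. The summed visceral endoderm markers were at 371 and 389 CPM and the trophectoderm markers at 358 and 427 CPM. The markers of these lists that were more than 2-fold higher in replicate 2 were Foxa2, Sox17 and Cdx2, the same genes already counted among the streak factors, and none was more than 2-fold lower. Of the 10 visceral endoderm markers 7 were higher in replicate 2, with a median log2 difference of 0.14. Amn was at 1.45 and 2.18 CPM and Cubn at 6.17 and 7.30 CPM, whereas Afp at 2.47 and 1.32 CPM, Apob at 7.26 and 4.14 CPM and Hnf4a at 2.65 and 1.73 CPM were lower in replicate 2, and Rhox5 alone made up 343.8 and 353.3 CPM of the sum. The part of any other cell type in the streak genes of todPGCLCs, in replicate 2 or against tcESCs, was not tested.

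**Figure D3:**
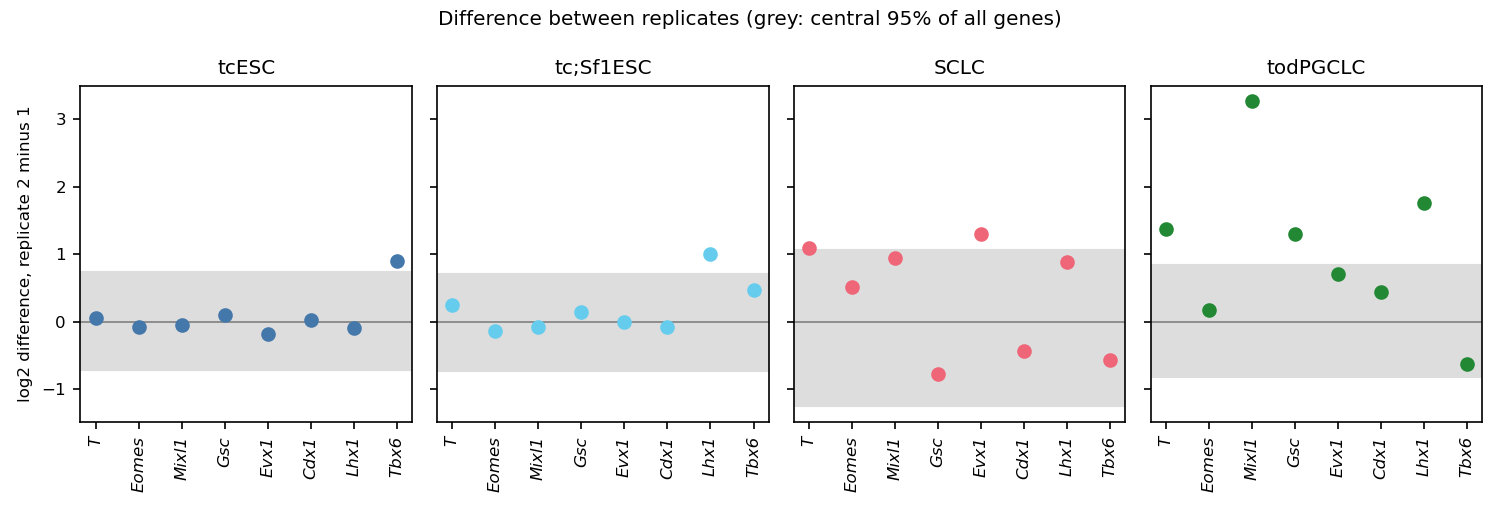
log2 difference between the replicates of each group (replicate 2 minus replicate 1, y axis) for the 8 genes with a mean count above 10, with a grey band for the central 95% of all genes. In todPGCLCs Mixl1 (3.27), Lhx1 (1.76), T (1.37) and Gsc (1.31) lie above the band, whereas tcESC values other than Tbx6 lie close to 0.

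To place the 9 genes, 4 further lists were followed: 15 signals of the streak and their feedback genes, 15 other transcription factors of the streak and nascent mesoderm, 15 factors of the paraxial and intermediate mesoderm, here called later mesoderm factors, and 20 paralogs of the 9 genes. These lists too were chosen with earlier results known, so their counts are set beside the share of all genes as a description. Among 13 tested signals and feedback genes of the streak, 6 were called higher in tc;Sf1ESCs than in tcESCs and 0 lower, with a median log2 fold change of 0.77 against 0.000959 over all genes. Lefty2 and Lefty1, Nodal antagonists, had mean levels of 34.2 and 6.03 CPM in tcESCs and of 253.3 and 33.1 CPM in tc;Sf1ESCs (log2 fold change 2.90 and 2.47, standard error 0.171 and 0.382, adjusted p = 9.56e-05 and 0.00317). Dkk1 was at 1.01 against 4.73 CPM (log2 fold change 2.23, adjusted p = 0.0103). Over all genes 6.04% were called higher and 5.62% lower. Among 12 other streak factors 3 were called higher and 0 lower: Gata6 (1.44, adjusted p = 0.0421), whose mean level over both lines was under 1 CPM, Tlx2 (1.34) and Nkx1-2 (1.21), an axial progenitor gene. The median of this list was 0.0277, or 0.13 with lower bounds in place of values fitted on groups at the floor. Of 11 later mesoderm factors Msx1 was called higher (2.62) and 1 gene lower, with a median of 0 (0.35 without tcESC replicate 2). That median is the fitted value of Emx2, which had 0 counts in every ESC library, so it measures no balance of changes. Of the 10 paralogs tested 2 fell and 0 rose, Tbx15 (-1.54) among those that fell, with a median of -0.22. Several of these calls rested on single libraries. Of the signals 3 were called higher without tcESC replicate 1 and 4 without tcESC replicate 2, where Lefty1 (adjusted p = 0.0645 and 0.0586) and Dkk1 (0.0908 and 0.0813) were lost, and 5 without either tc;Sf1ESC library. Of the other streak factors 0 were called without tcESC replicate 1 and 1 without any other library. Tlx2 was lost in all 4 cases, Nkx1-2 without either tcESC library (0.0546 and 0.0544), and Gata6 in all but the one without tcESC replicate 2 (2.85). The count of lower paralogs was 1 without tcESC replicate 1 or tc;Sf1ESC replicate 1.

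In SCLCs the lists diverged. Of all genes 24.3% were called higher and 18.3% lower than in tcESCs. Of the genes called higher, 3 of the other streak factors (Foxa2, Hand1 and Foxf1) and 3 of the later mesoderm factors (Pax2, Pax8 and Emx2) passed the filter only through the SCLC libraries, here and against tc;Sf1ESCs, so their calls add nothing to their levels. Against tcESCs, 8 of 13 streak signals were called lower and 1 higher, with a median log2 fold change of -2.51, or -2.31 with bounds, against 0.0461 over all genes. The pluripotent cell markers moved the same way, with 7 of 8 called lower, 0 higher and a median of -2.95. Sp5, a Wnt target, was at a mean of 20.3 CPM in tcESCs and 0.493 CPM in SCLCs (log2 fold change -5.31, adjusted p = 6.69e-07), Fgf4 (-5.23) and Tdgf1 (-4.98), the Nodal coreceptor, were also lower, and Dkk1 was higher (6.42). Of 12 other streak factors 8 were called higher and 3 lower, with a median of 2.57. The highest were Gata6 (8.49), Foxa2 (7.42) and Sox17 (6.44), which also act in endoderm and of which Foxa2 and Sox17 stand on the visceral endoderm list as well, and Otx2 was lower (-1.02) and Nkx1-2 at least 81.1-fold lower. Of 11 later mesoderm factors 9 were called higher and 0 lower, with a median of 2.47. Emx2, of the urogenital epithelium, had 266 and 430 counts against 0 in every ESC library, at least 115-fold higher, Pax2 of the intermediate mesoderm was at least 28.9-fold higher, and Msx2 was higher with 3.88. Of 10 paralogs 1 was called higher, Cdx2 (1.99), a trophectoderm gene, and 5 lower, Tbx20 (-2.16), Tbx18 (-2.13) and Tbx3 (-1.81) among them, with a median of -0.68. With 1 library left out Gata6 ran from 7.88 without tcESC replicate 1 to 9.89 without tcESC replicate 2, and Foxa2 was 8.17 without tcESC replicate 2. Fgf4 ran from -6.44 without SCLC replicate 1 to -4.56 without SCLC replicate 2, Tdgf1 was -5.78 without SCLC replicate 1 and Tbx20 -2.76 without SCLC replicate 2. The call of Otx2 was lost without tcESC replicate 1 (-0.97) or SCLC replicate 2 (-0.83), and that of Cdx2 without tcESC replicate 2 (adjusted p = 0.0672), while it was 1.13 without SCLC replicate 2.

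Against tc;Sf1ESCs the same SCLC libraries had 10 of 13 streak signals lower and 1 higher, with a median of -3.59, or -3.19 with bounds, against 0.0163 over all genes, of which 24.1% were called higher and 18.1% lower. Pluripotent cell markers again moved the same way, with 7 of 8 called lower, 0 higher and a median of -3.27. Of the 10 lower signals Wnt3a passed the filter only through the tc;Sf1ESC libraries. Sp5 (-7.17), Lefty2 (-5.80) and Fgf4 (-5.15) fell by the most among signals of at least 1 CPM, with Fgf4 at -6.37 without SCLC replicate 1 and -4.48 without SCLC replicate 2. Of 12 other streak factors 7 were higher and 3 lower (median 2.18), of 11 later mesoderm factors 7 were higher and 0 lower (median 1.93), and of 10 paralogs 2 were higher, Tbx2 (2.76) and Tbx15 (1.34), and 4 lower (median -0.88). Tbx2 was 3.35 without tc;Sf1ESC replicate 2. The 7 tested genes of the 9 had a median of -4.95, or -4.55 with the bound of Evx1, and a median of -3.19 against tcESCs that was -2.58 without SCLC replicate 1 and -4.34 without SCLC replicate 2. The median of the signals against tc;Sf1ESCs was -4.20 without SCLC replicate 1.

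In todPGCLCs the signals were mixed against tcESCs and high against SCLCs. Of 15 streak signals 7 were called higher and 4 lower than in tcESCs, with a median of 1.41 against 0.0340 over all genes, of which 18.1% were called higher and 11.2% lower. Of the genes called higher in todPGCLCs, here and against SCLCs, Cer1 and Fgf8 of the signals, Mesp2 of the other streak factors and of the paralogs, and Meox1 and Pax3 of the later mesoderm factors passed the filter only through the todPGCLC libraries, so their calls add nothing to their levels. In the same comparison 7 of 10 visceral endoderm markers, 6 of 9 trophectoderm markers and 4 of 8 Sertoli cell markers were called higher and 0 lower. Of the 8 germ cell markers 5 were called higher and 0 lower. These lists share Foxa2, Sox17, Hand1 and Cdx2 with the streak factors and Wt1 with the later mesoderm factors. Tfap2c stands on both the trophectoderm and the germ cell list. Lefty1 rose to a mean of 145.9 CPM (log2 fold change 4.52, adjusted p = 6.89e-06), Cer1, at 2.65 and 12.7 CPM, was at least 71.1-fold higher, or at least 24.6-fold without todPGCLC replicate 2 and at least 117.6-fold without todPGCLC replicate 1. Wnt8a was higher with 4.14, whereas Fgf4 (-1.87), Tdgf1 (-1.25) and Nodal (-1.16) were lower. Of 13 other streak factors 7 were higher and 4 lower (median 1.75, or 1.70 with bounds), led by Otx2 (4.57), an epiblast and anterior gene, with Foxa2 (3.78) and Gata6 (3.27) higher and Nkx1-2 (-4.85), Snai1 (-1.44) and Sp8 (-1.17) lower. Of 13 later mesoderm factors 9 were higher and 0 lower (median 2.23), with Pax8 (4.41), Wt1 (4.17) and Foxc1 (2.42) the largest at a mean of at least 1 CPM. Of 11 paralogs 2 were higher, Tbx4 (3.43) and Mesp2, a share near that of all genes, and 4 lower, Tbx15 (-4.22), Tbx3 (-3.38) and Tbx18 (-2.51) among them (median -0.67). The 8 tested genes of the 9 had a median of -0.87, which was -0.34 without todPGCLC replicate 1 and -1.59 without todPGCLC replicate 2. Without that last library the other streak factors had a median of 0.70, with 6 higher and 5 lower, the paralogs a median of -1.31, and 1 trophectoderm marker was called lower. Without tcESC replicate 2 the median of the signals was 2.12. The call of Tdgf1 was lost without any 1 of tcESC replicates 1 and 2 and todPGCLC replicate 2 (adjusted p = 0.0511, 0.0567 and 0.101), that of Sp8 without tcESC replicate 1, tcESC replicate 2 or todPGCLC replicate 1 (0.198, 0.0551 and 0.222), and that of Tbx4 without tcESC replicate 2 (0.0655). Sp8 was -2.07 without todPGCLC replicate 2, and Tbx4 4.17 without tcESC replicate 1. Gata6 and Pax8 were 2.62 and 3.77 without tcESC replicate 1, and 4.64 and 5.70 without tcESC replicate 2. Foxa2 was 4.50 without tcESC replicate 2 and 2.93 without todPGCLC replicate 2, and Nkx1-2 -4.11 without todPGCLC replicate 1 and -6.33 without todPGCLC replicate 2.

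Against SCLCs, 13 of the 15 signals were higher in todPGCLCs and 1, Dkk1 (-3.29), was lower, with a median of 3.74 against 0.0125 over all genes, of which 18.5% were called higher and 19.5% lower. Of 8 pluripotent cell markers 7 were higher and 1 lower (median 2.16), and of 8 germ cell markers 5 were higher and 0 lower (median 1.98). Of the genes called lower, Foxf1, Pax2 and Emx2 passed the filter only through the SCLC libraries. Lefty1 (5.25) and Lefty2 (4.86) were among the highest, and Cer1 was at least 70.9-fold higher, or at least 24.5-fold without todPGCLC replicate 2 and at least 117.3-fold without todPGCLC replicate 1. The other streak factors went the opposite way, with 3 of 13 higher and 8 lower (median -2.54), Otx2 (5.60) up and Gata6 (-5.22), Sox17 (-4.68) and Snai1 (-4.58) down. Of 10 visceral endoderm markers 9 were lower and 0 higher (median -5.01), and of 9 trophectoderm markers 6 were lower and 1 higher (median -2.38). Among these, Ttr, Apoa1 and Tpbpa passed the filter only through the SCLC libraries. Later mesoderm factors were divided, with 4 of 13 higher, among them Wt1 (2.80) and Tcf15 (1.78), and 5 lower, among them Pax2 (-3.43), Msx2 (-1.95) and Emx2, at least 111.8-fold lower (median -0.21, and 0.0351 without SCLC replicate 1). Of 11 paralogs 3 were higher, Tbx4 (1.92) among them, and 3 lower, Tbx15 (-4.01), Cdx2 (-2.54) and Tbx3 (-1.57), with a median of 0.22. The median of the 8 tested genes of the 9 was 2.52, or 2.13 with bounds, and ran from 1.76 without todPGCLC replicate 2 and 1.79 without SCLC replicate 1 to 3.19 without todPGCLC replicate 1 and 3.35 without SCLC replicate 2. That of the other streak factors was -3.14 without todPGCLC replicate 2 and -1.69 without SCLC replicate 2. The number called higher fell to 1 of the other streak factors, 2 of the later mesoderm factors and 0 of the paralogs without todPGCLC replicate 2. Without SCLC replicate 1 it was 1 for the other streak factors and 1 for the paralogs, and without todPGCLC replicate 1 it was 2 and 1. The call of Tbx4 was lost without todPGCLC replicate 1 or 2 (adjusted p = 0.0911 and 0.104), and its value was 4.48 without SCLC replicate 1 and 1.01 without SCLC replicate 2. Lefty1 was 6.26 and Wt1 3.72 without SCLC replicate 1, and 4.63 and 2.21 without SCLC replicate 2. Dkk1 was -2.62, Sox17 -4.07, Cdx2 -1.75 and Pax2 -4.15 without todPGCLC replicate 1. Without todPGCLC replicate 2 Dkk1 was -4.53, Sox17 -5.73 and Cdx2 -4.30, and Cdx2 was -1.69 without SCLC replicate 2.

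**Figure D4:**
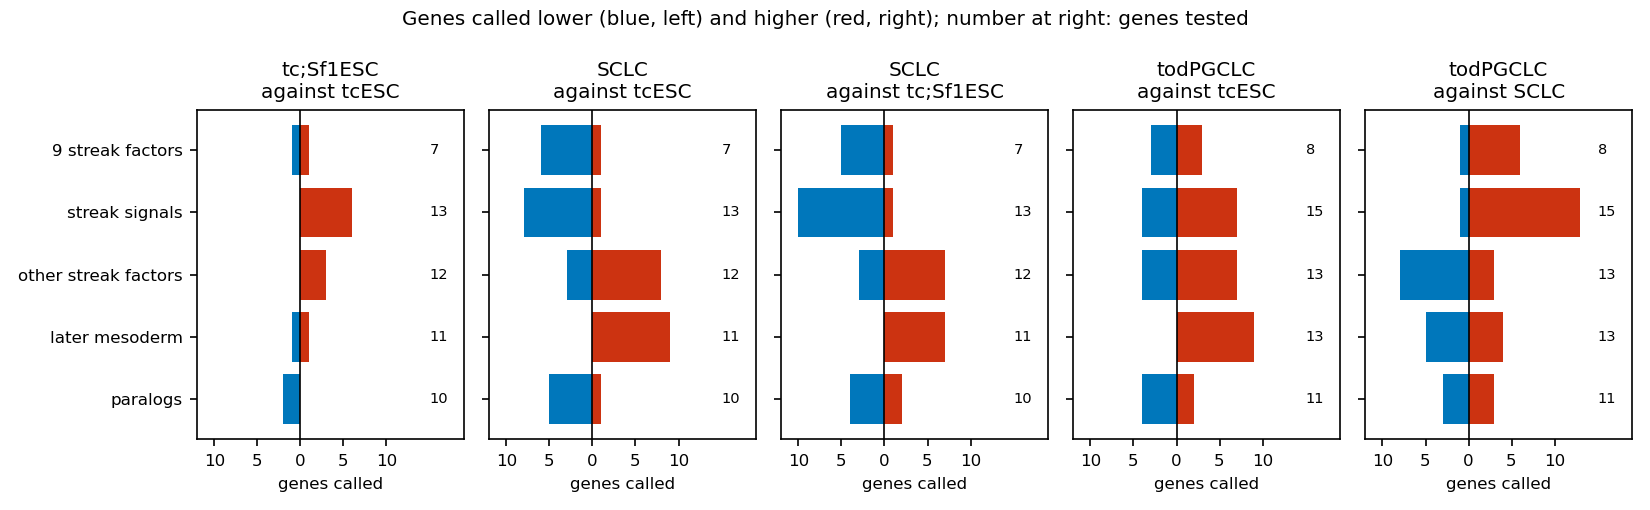
Number of genes called lower (blue, to the left) and higher (red, to the right) in the 9 streak genes and 4 further lists (rows) in each of the 5 comparisons, with the number of genes tested printed at the right of each row. In SCLCs against tcESCs the 9 streak genes (6 lower, 1 higher) and the signals (8 lower, 1 higher) point left, while the later mesoderm factors (0 lower, 9 higher) point right.

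Tbx6 and Cdx1 lie close to a gene on the same strand that had a similar order of levels. Ypel3 ends 968 bp before Tbx6 and was at 9.45 and 10.4 CPM in tcESCs, 11.9 and 11.9 in tc;Sf1ESCs, 48.3 and 38.8 in SCLCs and 24.9 and 22.7 in todPGCLCs. It was called higher in SCLCs than in tcESCs (log2 fold change 2.20, standard error 0.132, adjusted p = 6.68e-06), beside the 2.49 of Tbx6. Tbx6 had 3.33 to 6.71 counts for each 100 counts of Ypel3 over the 8 libraries, with 6.65 and 5.49 in SCLCs and 3.33 to 6.27 in ESCs, which overlapped. Whether transcripts of Ypel3 add to the Tbx6 counts was not tested. Slc6a7, 4639 bp from Cdx1, was at 37.9 and 34.1 CPM in tcESCs, 29.7 and 27.5 in tc;Sf1ESCs, 1.13 and 0.344 in SCLCs and 4.58 and 3.46 in todPGCLCs. It was called lower in SCLCs than in tcESCs with a fitted log2 difference of -5.56 (standard error 0.316, adjusted p = 5.13e-06), beside the -4.56 of Cdx1. Between the ESC lines the value of Slc6a7 was -0.32 (adjusted p = 0.301) and that of Cdx1 0.60, and neither was called.

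**Figure D5:**
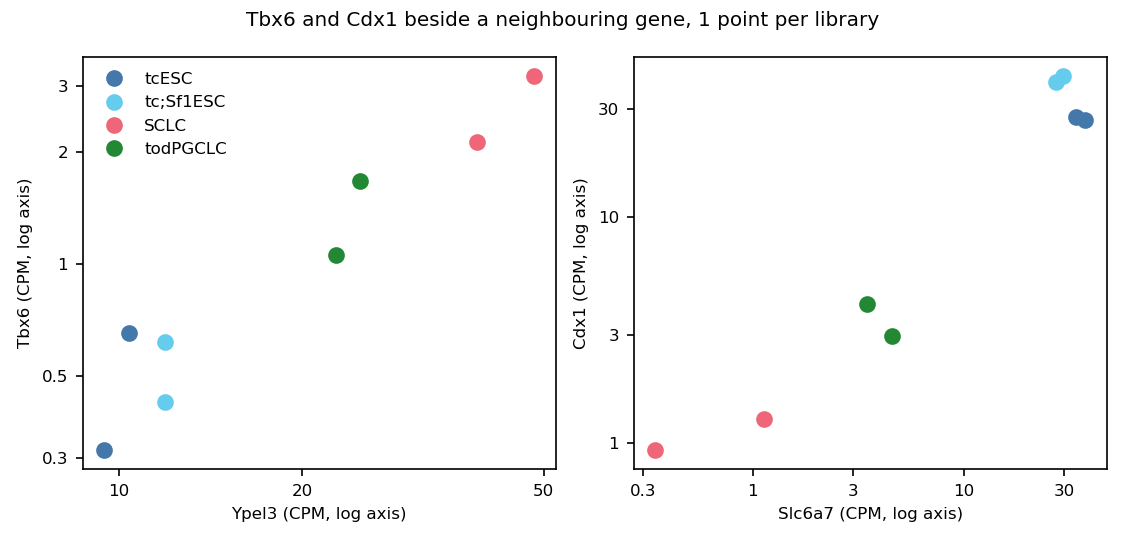
Level of Tbx6 against its neighbour Ypel3 (left) and of Cdx1 against its neighbour Slc6a7 (right), in CPM on log axes, with 1 point for each of the 8 libraries coloured by group. The SCLC points are at the upper right for Tbx6 and Ypel3 (38.8 and 48.3 CPM of Ypel3) and at the lower left for Cdx1 and Slc6a7 (1.13 and 0.344 CPM of Slc6a7).

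Evx1 overlaps an antisense gene, Evx1os, which had 24 and 20 counts in tcESCs, 12 and 7 in tc;Sf1ESCs, 1 and 1 in SCLCs and 6 and 7 in todPGCLCs. Eomes overlaps the antisense gene Gm33460 over 118 bp of exon, which has no counts of its own in the libraries. The libraries were strand-specific, but the strand setting of the counting is not given in the sources used here, so antisense reads may be held in the values of Evx1 and Eomes.

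For each of the 8 genes above 1 CPM in some group, the 2 genes with the most similar pattern over the 8 libraries were found among 15730 genes, by Pearson's r of log2 CPM with a prior count of 2. The libraries fall into 4 pairs, so r mostly compares 4 group levels and is given as a description. For T these were Trove2 (r = 0.993) and Hnrnpr (0.992), for Eomes Ldah (0.991) and Trip12 (0.988), and for Lhx1 Ttbk1 (0.994) and Usp6nl (0.991). Evx1 was most like Ccdc141 (0.996) and Dnajc11 (0.996), Cdx1 most like Map4k1 (0.997) and Aoah (0.9965), and Gsc most like Fibp (0.992) and Nif3l1 (0.992). The likeness was in shape and not in range: Hnrnpr had mean levels of 126.1 to 180.1 CPM, while T spanned 0.158 to 18.7 CPM. Aoah followed Cdx1 in range too, with 50.9 CPM in tcESCs, 68.5 in tc;Sf1ESCs, 0.762 in SCLCs and 3.27 in todPGCLCs. Mixl1 had the lowest values, with Zfp62 (0.958) and 1810030O07Rik (0.931), and Tbx6 was most like Gm37900 (0.984) and Mrpl23-ps1 (0.984), the latter named as a pseudogene, whose counts are uncertain.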

How the data were processed

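Poly-A RNA was sequenced from 8 libraries in 4 groups. Per the methods and the submitters' processing notes, reads were trimmed with Trim Galore and aligned to GRCm38 with STAR 2.4.0, and the notes also name Picard, HTSeq and DESeq2. The authors deposited raw read counts per Ensembl gene ID, without normalization. The annotation version is not given in the sources used here. Reads not counted on genes, such as the 20.5% to 27.5% that were not unique, stayed out of library totals, so genes with near-identical copies can be undercounted.

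IDs were named and placed with GENCODE M21, which holds 45229 of the 46078 IDs. Genes with a mean count above 10 were normalized by TMM and tested with edgeR 4.0.16 in R 4.3.3 (quasi-likelihood, Benjamini-Hochberg), with tcESCs, tc;Sf1ESCs and SCLCs in a fit of 6 libraries and 16481 genes and todPGCLC comparisons in a fit of 8 libraries and 16707 genes. Where every library of a group held 3 counts or fewer, the fold is a lower bound computed with 3 counts per library, and list medians are also given with such bounds. The scripts were tested on simulated data.

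The members and lists were chosen with earlier results of these data known. Genes of the lists are named when called at a mean of at least 1 CPM in the 2 groups, at most the 3 largest fitted changes each way. The 4 motifs were searched in RefSeq windows of GRCm38.p6. Alternatives were RLE size factors, library totals, filterByExpr, every gene with at least 1 count, DESeq2 1.42.0, the replicate number as a block, other sets of libraries, and each library left out in turn. edgeR's bias-adjusted deviances were chosen after the data were seen.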

Additional observations from a re-analysis of the deposited data

How the results depend on the processing

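Of 294 log2 fold changes refitted under alternatives that kept the groups' libraries, 291 kept their direction and side of the limits, and of 148 refitted with 1 library left out, 132 did. The number of the 9 genes called in todPGCLCs against SCLCs was 7 and ran from 4, without todPGCLC replicate 2, to 8 with libraries left out. Values near 0 or on few counts turned in sign when 1 library was left out: Tbx6 in tc;Sf1ESCs against tcESCs ran from -0.31 to 0.73, and was -0.20 without tc;Sf1ESC replicate 2. Eomes in SCLCs against tc;Sf1ESCs ran from -0.44 to 0.0934, Mixl1 in todPGCLCs against tcESCs from -4.51 to 0.12, and Mixl1 in todPGCLCs against SCLCs from -1.32 to 3.50. With filterByExpr, every gene with at least 1 count, or all 8 libraries, Lhx1 was tested in SCLCs and called higher, which gave 8 genes against tcESCs and 7 against tc;Sf1ESCs. With the replicate block, 2, 7, 6, 6 and 7 genes were called in the 5 comparisons, as without it. Same-numbered libraries had correlations of -0.0259 to 0.0624 in their deviations from the group means. The labels do not say whether same-numbered libraries share a culture, sort or batch, and these correlations cannot settle it. With 2 libraries a group, differences under 2-fold in genes of few counts, such as Mixl1, Mesp1 and Tbx6, are poorly resolved.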
